A study of Mus musculus with 4 samples.

Results

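Lrrk2, Smgc and Muc19 are 3 neighbouring genes on mouse chromosome 15, taken by name from a count table of 24411 gene symbols. All 3 had a row, and all 3 were among the 12810 genes with enough counts to be tested. They were chosen by name and position with their values known. Lrrk2 had been selected on its DESeq2 call between the ages, and Smgc and Muc19 as its abundant neighbours. Their own levels are therefore given as descriptions, and no test is read from them. The libraries come from sublingual glands of female mice on the C57BL/6J background, and every mouse was Nkx2.3-/-, so all animals lacked the homeobox gene that the study targeted. There were 2 libraries from mice aged 8 weeks (replicates 1 and 2) and 2 from mice aged 32 weeks (replicates 3 and 4). The sources used here do not say which part of Nkx2-3 was removed, whether each library came from 1 animal, or how the counts were made after alignment. Glands with intact Nkx2-3 were not analysed here, so the 2 ages can be compared only within the knockout.

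Libraries held between 12925869 and 16484772 counts. Nkx2-3 itself had 31 and 28 counts at 8 weeks against 21 and 29 counts at 32 weeks. The libraries did not pair by age. Across 12810 genes, which are not independent replicates, Pearson's r of log2(CPM + 1) was 0.988 between 8-week replicate 1 and 32-week replicate 4, 0.965 within the 8-week pair and 0.985 within the 32-week pair. Pairs with 8-week replicate 2 lay lower than pairs without it. Replicate 2 stood at 0.976 with replicate 3 and 0.967 with replicate 4, while replicates 1 and 3 stood at 0.984. CPM here is the count scaled to a common library total after TMM, a correction for differences in library makeup. Dcpp3, a demilune protein gene typical of this gland, stood at 81956 to 249002 CPM. Amy1, salivary amylase of the parotid gland, stood at 152 CPM in 8-week replicate 1 and at 1.63 to 2.005 CPM in the other libraries.

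Muc19 encodes a gel-forming mucin, the large glycoprotein that gives sublingual saliva its viscosity and that mucous acinar cells store in granules. Smgc, submandibular gland protein C, is a secreted salivary protein best known from the developing submandibular gland and from the sublingual gland. Smgc and Muc19 are products of 1 transcription unit: both begin with the same first exon, and the choice of the next exon decides which RNA is made. Lrrk2 encodes a large kinase with a GTPase domain that phosphorylates Rab proteins, the switches of vesicle traffic, and human variants of this gene cause Parkinson's disease.

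On the NCBIM37 assembly, the one that mm9 names, Lrrk2 spans chr15:91503606-91646551, Smgc chr15:91668696-91691869 and Muc19 chr15:91668757-91766819, all on the plus strand in the GENCODE vM1 annotation. The end of Lrrk2 and the start of Smgc lie 22144 bases apart, and no exon of Lrrk2 overlaps Smgc. The exon models of Smgc and Muc19 have 95 bases in common, all in the first exon (chr15:91668757-91668851), which is 2.77% of the annotated exon bases of Smgc and 1.18% of those of Muc19. The remaining exons of Smgc lie inside the first intron of Muc19. The coding part of the shared exon and the splice sites at which the RNAs part are shown because they define what separates the 2 counts. In the first line the capitals mark the start codon. In the next lines they mark the first 2 bases or the last 2 bases of the intron.
Shared coding part of exon 1, chr15:91668800-91668851: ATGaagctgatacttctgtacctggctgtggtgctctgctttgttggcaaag
Shared splice donor, chr15:91668832-91668871: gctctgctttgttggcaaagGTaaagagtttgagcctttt
Smgc acceptor, chr15:91671723-91671792: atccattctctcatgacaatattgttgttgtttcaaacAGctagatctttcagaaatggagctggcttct
Muc19 acceptor, chr15:91700863-91700932: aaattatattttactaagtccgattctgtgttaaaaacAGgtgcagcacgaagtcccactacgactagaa
The Smgc acceptor lies 2911 bases past the shared donor and the Muc19 acceptor 32051 bases past it. The first exon codes for the start of both proteins, so reads that lie wholly within it cannot be given to either gene, and reads of unspliced Muc19 RNA can fall in Smgc exons. How the authors' counting treated such reads was not stated in the sources used here.

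**Figure D1:**
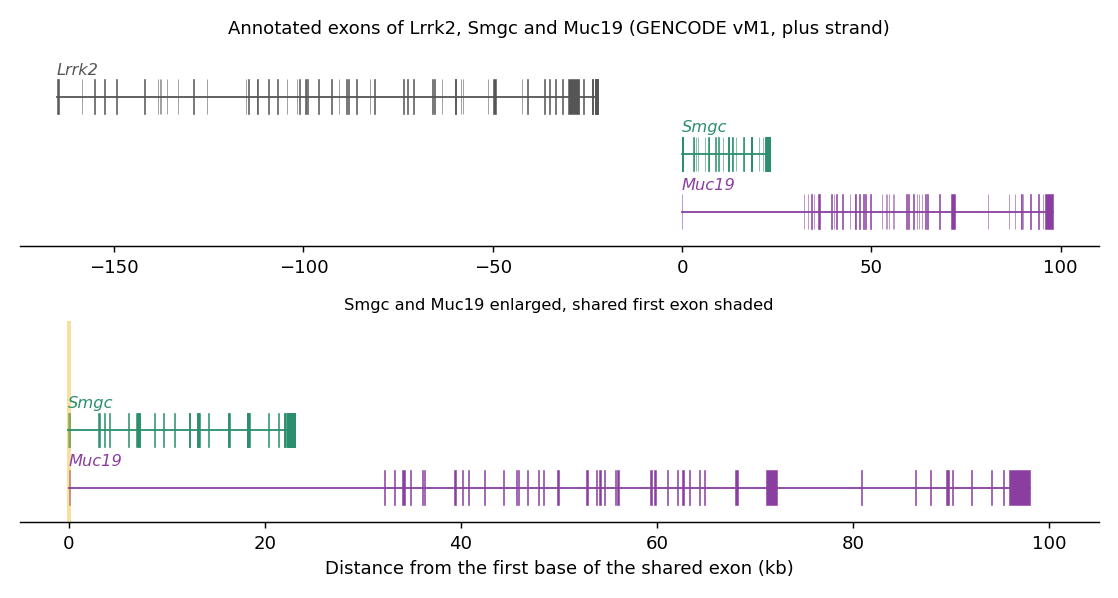
Annotated exons (boxes) and introns (lines) of Lrrk2, Smgc and Muc19 against distance in kb from the first base of the shared exon, with the whole locus above and Smgc and Muc19 enlarged below. Narrow exons are widened to be visible. The Smgc exons after the shaded first exon all lie before the second exon of Muc19.

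The 250 bases before the RefSeq start are printed for Smgc, which on NCBIM37 lies at 91668759, within 2 bases of the annotated start of Muc19, and for Lrrk2, since the outputs of these 2 starts differ by orders of magnitude. Both sequences are RefSeq's on GRCm38.p6, a later build than that of the counts, and each RefSeq entry was found at exactly 1 place on NCBIM37. Lrrk2 and Smgc matched a RefSeq entry by symbol, and Muc19 did not. Capitals mark TATAAA in the Smgc sequence and GGGCGG, the GC box, in the Lrrk2 sequence, searched on both strands.
Smgc and Muc19 start, chr15:91838078-91838327, plus strand: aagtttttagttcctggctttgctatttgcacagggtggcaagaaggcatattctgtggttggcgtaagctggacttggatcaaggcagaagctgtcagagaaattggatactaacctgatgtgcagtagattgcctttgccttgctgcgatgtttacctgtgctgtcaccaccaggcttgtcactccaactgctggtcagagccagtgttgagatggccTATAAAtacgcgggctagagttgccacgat
Lrrk2 start, chr15:91672974-91673223, plus strand: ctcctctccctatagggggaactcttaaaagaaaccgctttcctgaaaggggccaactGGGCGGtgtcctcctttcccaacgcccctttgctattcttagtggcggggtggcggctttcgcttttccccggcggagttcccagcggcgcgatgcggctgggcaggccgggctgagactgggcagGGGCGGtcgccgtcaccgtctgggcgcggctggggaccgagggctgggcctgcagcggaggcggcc
The Smgc window held TATAAA at base -30, and 12.4% of the 32851 RefSeq windows of this length held it on either strand. The Lrrk2 window held no TATAAA but GGGCGG at bases -192 and -66, which 32.7% of windows held. G and C made up 48.8% of the Smgc window and 67.6% of the Lrrk2 window, against a median of 52.4%. The Lrrk2 window held 22 CG pairs and the Smgc window 5, against a median of 6. The letters AAGTG, a core that NKX homeobox proteins are known to bind, were in neither window and in 40.7% of all windows. These matches are descriptions of sequence, not sites of binding.

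Smgc was among the most abundant RNAs of the gland and varied more within each age than between the ages. It had 1925323 and 1061230 counts at 8 weeks against 607196 and 2163912 counts at 32 weeks, or 142077 and 73277 CPM at 8 weeks against 41973 and 125863 CPM at 32 weeks. Replicates 1 and 4, of different ages, were high, replicates 2 and 3 were low, and the ages overlapped. Smgc was the most counted gene in replicates 1 and 4, the third in replicate 2 and the fifth in replicate 3. It took 14.9% (95% exact binomial interval 14.88% to 14.91%) and 7.44% (7.43% to 7.45%) of all counts at 8 weeks. At 32 weeks it took 3.68% (3.67% to 3.69%) and 13.4% (13.41% to 13.45%). Such intervals cover counting error only and are far narrower than the spread between libraries.

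The gap between the 2 libraries of an age was 0.96 on the log2 CPM scale at 8 weeks and 1.58 at 32 weeks for Smgc. Of 6685 genes with a mean of at least 10 CPM, 94.4% had a smaller gap at 8 weeks and 99.4% a smaller gap at 32 weeks, with medians of 0.31 and 0.15. The fitted log2 fold change of Smgc (32 over 8 weeks) was -0.36 (SE 0.78, 95% interval -2.18 to 1.46). Its sign rested on single libraries, with 0.20 without replicate 1, 0.23 without replicate 3, -0.75 without replicate 2 and -1.36 without replicate 4.

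Dcpp3, the most abundant demilune gene, ran in the reverse order to Smgc across the libraries, at 81956 and 178597 CPM at 8 weeks against 249002 and 90256 CPM at 32 weeks. Dcpp2, its near-identical copy, stood at 43901 and 97127 CPM at 8 weeks against 132936 and 52678 CPM at 32 weeks, and the division of reads between such copies is uncertain. These levels are shares of 1 total, and how far that alone sets the reverse order was not tested. Spt1, another salivary secretory gene, stood at 65020 and 3654 CPM at 8 weeks against 3102 and 36104 CPM at 32 weeks, high in the same libraries as Smgc. In bulk RNA, fewer cells of a type and less RNA per cell cannot be told apart. Of the 10 demilune and serous genes tested, 0 were called by edgeR in either direction, against 0% of all genes, and 0 had an unadjusted p under 0.05. DESeq2 and limma-voom also called 0 of them. Their median log2 fold change was 0.18, beside -0.01 over all genes tested.

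Muc19, the mucin made from the same start, was steadier than Smgc. It had 162898 and 200862 counts at 8 weeks against 293384 and 287485 counts at 32 weeks, or 12021 and 13869 CPM at 8 weeks against 20281 and 16721 CPM at 32 weeks. Both 32-week libraries lay above both 8-week libraries, the closest pair being 1.21-fold apart. Of the 12810 genes tested, 14.4% had both 32-week libraries above both 8-week libraries. The fitted log2 fold change was 0.52 (SE 0.44, 95% interval -0.52 to 1.55), and it ranged from 0.38 to 0.65 with 1 library left out. Muc19 varied 1.69-fold over the 4 libraries and Smgc 3.38-fold. The gap within an age was 0.21 at 8 weeks and 0.28 at 32 weeks for Muc19 on the log2 CPM scale. Of the 6685 genes with a mean of at least 10 CPM, 34.6% had a smaller gap at 8 weeks and 78.6% at 32 weeks.

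**Figure D2:**
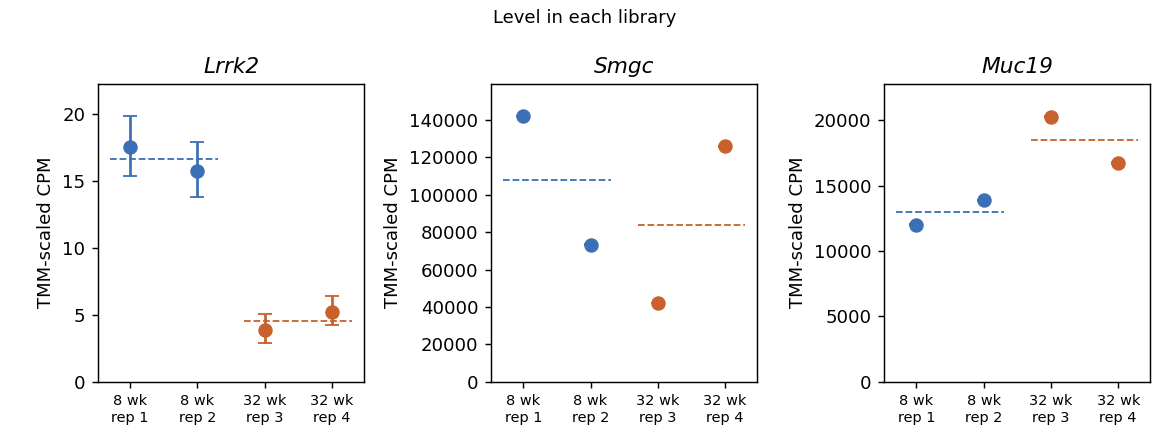
TMM-scaled CPM of each gene in each library, on linear axes that start at 0, with 95% Poisson counting intervals as bars and the mean of each age dashed. Lrrk2 and Muc19 do not overlap between the ages, and neither do 14.2% of tested genes that lie lower at 32 weeks and 14.4% that lie higher. Smgc is high in 8-week replicate 1 (142077 CPM) and 32-week replicate 4 (125863 CPM).

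Smgc counts exceeded Muc19 counts in every library, by a factor that differed widely. There were 11.8 Smgc counts per Muc19 count (95% exact binomial interval 11.76 to 11.88) in 8-week replicate 1 and 5.28 (5.26 to 5.31) in 8-week replicate 2. At 32 weeks there were 2.07 (2.06 to 2.08) in replicate 3 and 7.53 (7.498 to 7.56) in replicate 4. The ages overlapped, since replicate 4 lay between the 8-week libraries, and the ratio varied 5.71-fold over the 4 libraries. The mean log2 ratio was 2.98 at 8 weeks and 1.98 at 32 weeks. The difference of -1.002 ranged from -1.93 to -0.07 with 1 library left out, and 2 libraries an age cannot give an exact permutation p below 0.333.

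Because a long RNA yields more reads than a short one, the ratio was also taken per length, with 3426 annotated exon bases for Smgc and 8040 for Muc19. On that scale there were 27.7 and 12.4 Smgc RNAs per Muc19 RNA at 8 weeks against 4.86 and 17.7 at 32 weeks. Smgc made up 96.5% and 92.5% of the pair per exon length at 8 weeks against 82.9% and 94.6% at 32 weeks. Smgc was thus the more abundant of the 2 RNAs in all 4 libraries on this scale. The annotation splits Muc19 into 3 separate models, under 2 gene identifiers, with 5969 bases between them that belong to no exon. With those bases added to its length, the Smgc share of the pair was 98.0% and 95.6% at 8 weeks against 89.4% and 96.9% at 32 weeks. The length that the authors' annotation gives Muc19 is not known here, so the level of the ratio is less certain than its order across libraries.

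The sum of both RNAs followed Smgc. Together they took 16.2% and 8.85% of counts at 8 weeks against 5.46% and 15.2% at 32 weeks. Per kb of exon, their summed level was 42965 and 23114 CPM at 8 weeks against 14774 and 38817 CPM at 32 weeks. The library with the lowest sum, 32-week replicate 3, had the highest Muc19 level.

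**Figure D3:**
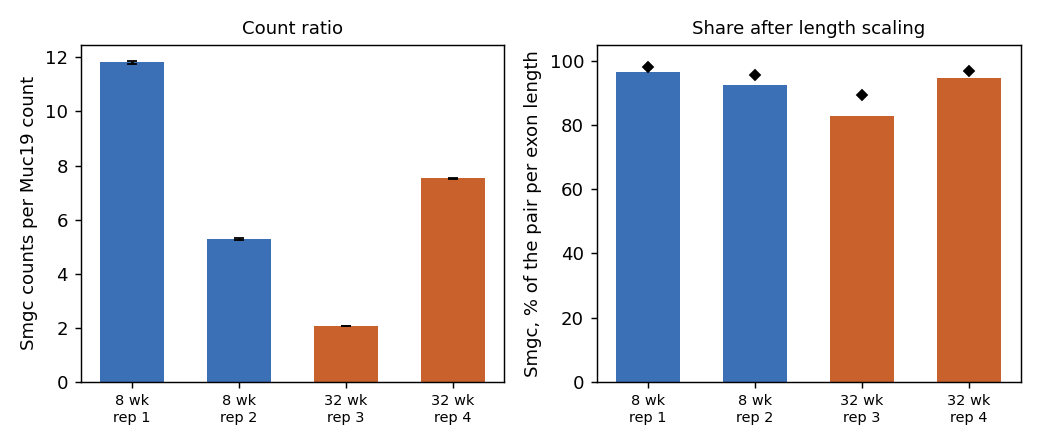
Left, Smgc counts per Muc19 count in each library with 95% exact binomial intervals. Right, Smgc as a percentage of both RNAs after division by annotated exon length, with diamonds where the bases between the Muc19 models are added. Bars start at 0, and 32-week replicate 3 is lowest in both panels (2.07 and 82.9%).

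Lrrk2 was a low-abundance RNA and lay higher in both 8-week libraries. It had 237 and 228 counts at 8 weeks against 56 and 90 counts at 32 weeks, which is 17.5 and 15.7 CPM at 8 weeks against 3.87 and 5.23 CPM at 32 weeks. The 95% Poisson counting intervals ran from 13.8 to 19.9 CPM over the 8-week libraries and from 2.92 to 6.43 CPM over the 32-week libraries. On the log2 CPM scale, the gap within an age was 0.15 at 8 weeks and 0.44 at 32 weeks. Of the 6685 genes with a mean of at least 10 CPM, 25.3% had a smaller gap at 8 weeks and 91.8% at 32 weeks. The lowest 8-week level was 3.01 times the highest 32-week level, and 14.2% of tested genes had both 32-week libraries below both 8-week libraries.

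The fitted log2 fold change of Lrrk2 was -1.86 (SE 0.24, 95% interval -2.43 to -1.29), that is 3.63-fold lower at 32 weeks. It ranged from -2.10 to -1.66 with 1 library left out. DESeq2, which had led to its choice, gave an adjusted p of 0.00207 and called 0.0166% of the 18104 genes it tested. The quasi-likelihood test of edgeR gave an adjusted p of 0.784, and over the alternatives it ran from 4.16e-05 (edgeR with total counts only) to 0.916 (limma-voom). Only 8 of the 12810 genes, Lrrk2 included, had a fitted fold change this low. Nothing is read from these values about Lrrk2, since they are the ones it was picked for.

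**Figure D4:**
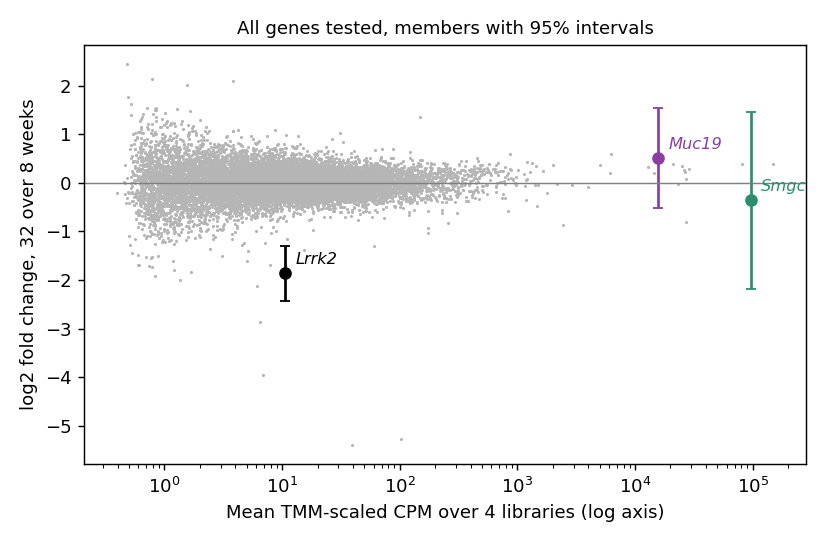
Log2 fold change (32 over 8 weeks) against mean TMM-scaled CPM on a log axis, 1 grey point for each of the 12810 genes tested, with the 3 genes coloured and their 95% intervals as bars. Lrrk2 lies at -1.86 and about 10.6 CPM, while Muc19 (15723 CPM) and Smgc (95798 CPM) have intervals that include 0.

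The distance in abundance along the locus was large. Per kb of exon, Lrrk2 stood at 1.48 and 1.33 CPM at 8 weeks against 0.327 and 0.442 CPM at 32 weeks. Muc19 stood at 1495 and 1725 CPM per kb at 8 weeks against 2522 and 2080 CPM per kb at 32 weeks. Smgc stood at 41470 and 21389 CPM per kb at 8 weeks against 12251 and 36738 CPM per kb at 32 weeks. The order Smgc, Muc19, Lrrk2 thus held in each of the 4 libraries without overlap. For every 1000 Muc19 counts there were 1.45 and 1.14 Lrrk2 counts at 8 weeks against 0.191 and 0.313 at 32 weeks.

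Genes on either side of the locus were low, and neither of those tested passed the test of age. Of 12 other genes annotated within 500 kb, 4 had a row by that name and 2 had enough counts to be tested. Slc2a13, a myo-inositol transporter gene 99.9 kb before Lrrk2 on the opposite strand, stood at 14.3 and 8.35 CPM at 8 weeks against 10.4 and 8.72 CPM at 32 weeks. Its log2 fold change was -0.24 (SE 0.29, edgeR adjusted p = 0.999). Abcd2, a peroxisomal fatty acid transporter gene, had 13 and 8 counts at 8 weeks against 13 and 13 counts at 32 weeks, a log2 fold change of 0.13 (SE 0.52, edgeR adjusted p = 0.999). Cntn1, a neuronal adhesion gene 115 kb past Muc19, had 0 to 4 counts and Pdzrn4 0 or 1 counts in a library. A count of 0 allows up to 3 counts, or 0.174 to 0.221 CPM by library.

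Genes listed as substrates or partners of the Lrrk2 kinase were read beside it. EdgeR called 0% of all 12810 genes tested, of which 1.36% had an unadjusted p under 0.05, and DESeq2 called 0.0166% of its own. A count of 0 in a short list is therefore no result about that list, here and in the lists that follow. Of 14 Rab genes whose proteins it phosphorylates, 12 were tested (Rab3b and Rab3c were not), and edgeR called 0 higher and 0 lower, with 0 at an unadjusted p under 0.05. DESeq2 and limma-voom called 0 of them too. Their median log2 fold change was 0.04, with a range from -0.34 (Rab5b) to 0.36 (Rab12), beside -0.01 over all genes. Rab3d, the Rab of secretory granules in exocrine cells, was the most abundant, at 334.7 and 334.7 CPM at 8 weeks against 349.8 and 342.7 CPM at 32 weeks. Rab8a, a Rab of traffic to the plasma membrane, stood at 68.4 and 87.8 CPM at 8 weeks against 80.7 and 72.9 CPM at 32 weeks. For both Rabs the difference between the ages was smaller than its error. The log2 fold changes were 0.05 (SE 0.22) for Rab3d and -0.02 (SE 0.21) for Rab8a.

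Among 21 partners and regulators of the kinase, all of them tested, edgeR, DESeq2 and limma-voom again called 0, and 0 had an unadjusted p under 0.05 in edgeR. The median log2 fold change was 0.03. The most abundant were 14-3-3 proteins, which bind phosphorylated Lrrk2: Ywhae stood at 219 and 331 CPM at 8 weeks against 237 and 209 CPM at 32 weeks, and Ywhaz at 199 and 193 CPM at 8 weeks against 184 and 187 CPM at 32 weeks. Lrrk1, the paralog of Lrrk2, stood at 15.1 and 18.5 CPM at 8 weeks against 15.0004 and 13.4 CPM at 32 weeks. Its log2 fold change was -0.24 (SE 0.21, 95% interval -0.72 to 0.24, edgeR adjusted p = 0.999). Ppm1h, the phosphatase that reverses Rab phosphorylation by Lrrk2, stood at 20.4 and 19.7 CPM at 8 weeks against 18.7 and 17.7 CPM at 32 weeks.

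**Figure D5:**
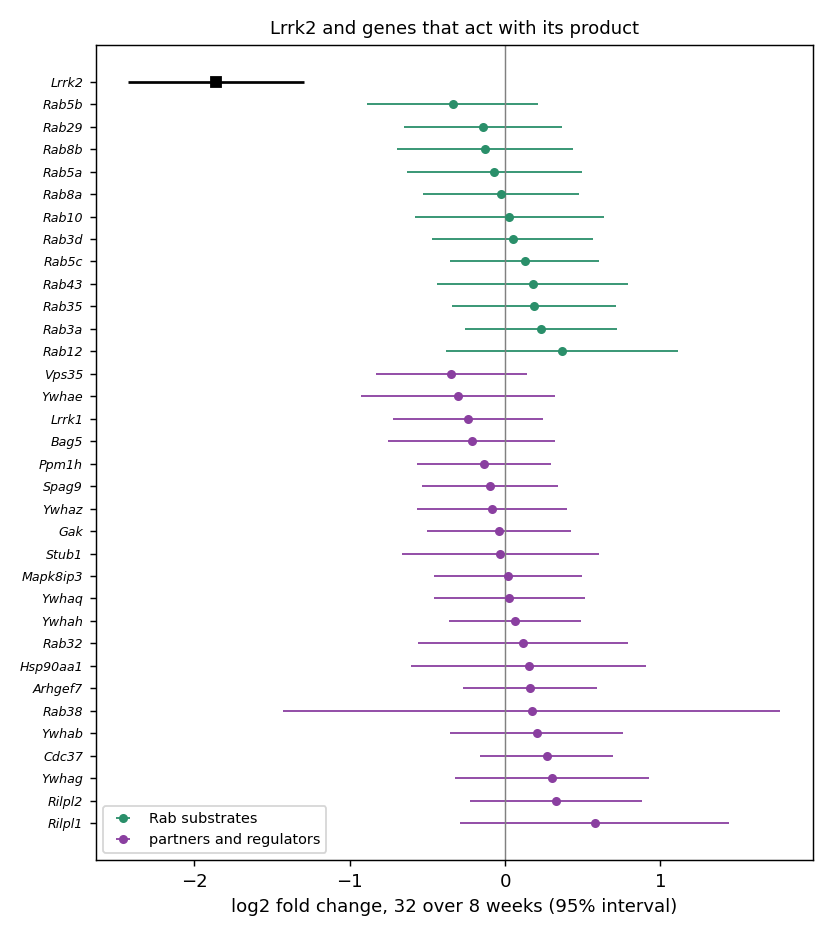
Log2 fold change (32 over 8 weeks) with 95% intervals for Lrrk2 (square), 12 Rab substrate genes and 21 partner and regulator genes. Lrrk2 lies at -1.86, while the other genes lie between -0.35 and 0.58 with intervals that include 0.

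Markers of neighbouring glands were read beside Lrrk2. The 9 listed markers of submandibular granular ducts had a summed level of 234 and 298 CPM at 8 weeks against 169 and 134 CPM at 32 weeks. Most of that sum came from Egf in each library. All 7 tested ones had negative fold changes (median log2 -1.23), as did 51.7% of all genes, and 5 had both 32-week libraries below both 8-week libraries, as did 14.2% of all genes. EdgeR and limma-voom called 0 of the 7, and 4 had an unadjusted p under 0.05 in edgeR, against 1.36% of all genes. DESeq2, which called 3 of 18104 genes, called Klk1b22 and also Smr3a, which edgeR had not tested. Egf, the most abundant of the list, was narrowly among those 5. It stood at 158.7 and 258 CPM at 8 weeks against 157.2 and 123 CPM at 32 weeks. The 674 counts of Smr3a (49.7 CPM) all came from 8-week replicate 1, with 0 elsewhere, and Ren1 was at 0 throughout.

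The 6 genes listed as parotid markers differed in their pattern over the libraries. Amy1 and Dnase1 were high in 8-week replicate 1 alone, Dnase1 at 24.9 CPM there and at 0.698 to 1.10 CPM elsewhere. Prol1, a salivary mucin-type protein, stood at 196 and 203 CPM at 8 weeks against 10.02 and 0.407 CPM at 32 weeks. Cldn10, a tight junction gene of acinar cells, stood at 431 and 489.8 CPM at 8 weeks against 489.8 and 439 CPM at 32 weeks. The list's sum, 804 and 696 CPM at 8 weeks against 503 and 442 CPM at 32 weeks, came mainly from Cldn10 and Prol1 and so gives no level of parotid tissue. EdgeR, DESeq2 and limma-voom called 0 of the list, 3 of the 4 tested had an unadjusted p under 0.05 in edgeR, and Prb1 was at 0. The part of the glandular markers in the level of Lrrk2 was not tested.

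Markers of immune cells, in which Lrrk2 is known to be expressed, had summed levels that overlapped between the ages. The 5 macrophage and monocyte markers summed to 61.9 and 36.2 CPM at 8 weeks against 46.9 and 68.1 CPM at 32 weeks. Csf1r, the receptor that macrophages need to survive, stood at 13.7 and 14.8 CPM at 8 weeks against 15.5 and 17.7 CPM at 32 weeks. The 5 B cell and plasma cell markers summed to 927 and 75.5 CPM at 8 weeks against 516 and 806 CPM at 32 weeks, nearly all from Jchain, the joining chain of secreted antibodies. Ly6c2, a monocyte surface protein, and Cd79a, a part of the B cell receptor, were lowest in 8-week replicate 2, at 2.62 and 0.829 CPM, against 11.0 to 21.5 CPM and 2.07 to 4.304 CPM in the others. The B cell marker Ms4a1 stood at or under 0.295 CPM in each library. The 4 neutrophil markers summed to at most 0.233 CPM in any library. Neither edgeR, DESeq2 nor limma-voom called any of the 8 immune markers tested, and 0 had an unadjusted p under 0.05 in edgeR.

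Muc19 was the only gel-forming mucin above the counting floor of 3 counts in every library, and Muc6, the next, had 1 to 5 counts. Muc5ac had 0 counts in all libraries, and Muc2, Muc5b and Muc6 summed with it to between 0.148 and 0.414 CPM. Of the 5 membrane mucins with a row, Muc1 and Muc20 had enough counts to be tested. Muc1 stood at 0.295 and 2.9001 CPM at 8 weeks against 0.830 and 1.45 CPM at 32 weeks. Muc20 stood at 1.11 and 4.005 CPM at 8 weeks against 0.899 and 1.92 CPM at 32 weeks. Both were highest in 8-week replicate 2, and neither passed with edgeR, DESeq2 or limma-voom or had an unadjusted p under 0.05.

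Genes that fold and decorate mucins were read beside Smgc and Muc19. Of 23 folding and mucous cell genes, 15 were tested. EdgeR called 0 higher and 0 lower, 0 had an unadjusted p under 0.05, and DESeq2 and limma-voom called 0 (median log2 fold change 0.05). Creb3l1, a secretory pathway transcription factor, stood at 745 and 394 CPM at 8 weeks against 699.7 and 700.2 CPM at 32 weeks. Xbp1, which drives expansion of the endoplasmic reticulum, stood at 683 and 451 CPM at 8 weeks against 751 and 628 CPM at 32 weeks. Both were lowest in 8-week replicate 2, where Agr2, a disulfide isomerase that mucins need, also lay outside the others at 5.59 CPM against 49.6 to 57.2 CPM. Other members of the list were highest in that library, with Pdia3 at 401 CPM, Pdia4 at 173 CPM, Pdia6 at 172 CPM and Creb3l4 at 364 CPM. Muc19 was neither highest nor lowest there. The goblet cell genes Tff1, Tff3, Clca1 and Ern2 were at 0 in all libraries.

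Mucin O-glycosylation begins with GALNT enzymes, which attach the first sugar. Of 28 genes of this pathway, 21 were tested. EdgeR, DESeq2 and limma-voom called 0 of them, and 0 had an unadjusted p under 0.05 in edgeR (median log2 fold change -0.03). The most abundant were St3gal1, a sialyltransferase, at 920 and 878 CPM at 8 weeks against 916 and 948 CPM at 32 weeks, and Galnt7, at 650.0 and 443 CPM at 8 weeks against 451 and 509 CPM at 32 weeks. Their log2 fold changes were 0.05 (SE 0.25) and -0.19 (SE 0.28).

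The genes most like each of the 3 were found by the Euclidean distance between log2 CPM values centred on each gene's mean over the 4 libraries, among 6685 genes with a mean of at least 10 CPM. This is a description over 4 points that also share library makeup. For Muc19 the closest were Selm, Fam213b, Sox13, Ly6c1 and Ddah2, at distances of 0.10 to 0.16. Selm, a selenoprotein of the endoplasmic reticulum, stood at 34.8 and 40.4 CPM at 8 weeks against 58.8 and 44.7 CPM at 32 weeks. For Smgc they were Ptpru, C130026I21Rik, Mylip, Gabra4 and Slc16a12, at 0.55 to 0.63. Ptpru, a receptor tyrosine phosphatase, stood at 21.3 and 10.8 CPM at 8 weeks against 9.82 and 24.2 CPM at 32 weeks.

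For Lrrk2 no gene of that abundance came close: Gyk, Bcl6, C130026I21Rik, Usp6nl and Lrrc40 were nearest, at 1.20 to 1.36. With genes down to a mean of 1 CPM the nearest were Klk1b22, Klk1b4, Fos, Klk1b5 and Gm19522, at 0.49 to 0.86, and 0 of the former 5 stayed. Klk1b4, a tissue kallikrein with near-identical paralogs whose counts are uncertain, stood at 4.06 and 5.04 CPM at 8 weeks against 1.38 and 1.80 CPM at 32 weeks. By the same measure Lrrk2 and Muc19 lay 2.46 apart, Smgc and Muc19 1.85 and Lrrk2 and Smgc 1.71. Ordered by distance from Muc19, Smgc came at rank 6660 and Lrrk2 at rank 6669 among the 6685 genes. Ordered by distance from Lrrk2, Smgc came at rank 724 and Muc19 at rank 6490, and ordered from Smgc, Lrrk2 came at rank 6009 and Muc19 at rank 6367. The values were centred but not scaled, so these distances and ranks also depend on how much each gene varied. Over the 4 libraries Muc19 varied 1.69-fold, Smgc 3.38-fold and Lrrk2 4.52-fold. The ranks are therefore not a measure of pattern alone.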

How the data were processed

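RNA was profiled in 4 libraries, 2 at 8 weeks and 2 at 32 weeks. The authors deposited unnormalized integer counts of reads for each gene symbol. Reads were aligned with STAR to mm9, per the submitters' processing notes. The counting tool, annotation, strand setting and handling of reads with several matches were not stated in the sources used here.

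The members and gene lists were chosen with earlier results of these data known. Counts were fitted in R 4.3.3 with edgeR 4.0.16 (TMM, filterByExpr by age, quasi-likelihood test, age as the only term), with Benjamini-Hochberg adjustment over 12810 genes and a threshold of 0.05. DESeq2 1.42.0 and limma-voom (limma 3.58.1) were alternatives. P-values measure only the spread between these libraries, which may be technical. Only the edgeR fit was tried on simulated data, with the same spread set for every gene, so the trial does not cover the other steps. Named genes were the 3 members, genes within 500 kb, the most like 5 of each member, and from each list the called genes or otherwise the 2 of highest mean CPM. Further genes named, such as Lrrk1, Ppm1h, Rab5b, Rab12, Agr2, Spt1, Amy1 and Klk1b4, were chosen after their values were seen. Exon lengths came from GENCODE vM1, as the union of each gene's exons. Promoter sequences came from RefSeq on GRCm38.p6 and the other sequences from NCBIM37.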

Additional observations from a re-analysis of the deposited data

How the results depend on the processing

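The number of genes called between the ages was 0 with edgeR as reported, 10 with total counts only, 7 with no low-count filter and 3 with DESeq2, and with 1 library left out it ranged from 6 to 285. The log2 fold change of Lrrk2 was -1.86 and that of Muc19 0.52. Over 8 settings that kept all libraries they lay between -1.93 and -1.85 and between 0.42 and 0.52. With 1 library left out Lrrk2 ranged from -2.10 to -1.66. Smgc, at -0.36, ranged from -1.36 to 0.23, and it turned positive without replicate 1 (0.20) and without replicate 3 (0.23). When an age was left with 1 library, that library was assumed to vary like the other age. The Smgc-to-Muc19 ratio per length, as a geometric mean over the libraries, was 13.1, and 5.58 with no length scaling, which differs by the ratio of the lengths alone. Adding the bases between the Muc19 models, an alternative chosen after seeing the data, gave 22.8. The share of each gene was also taken with the 10 most abundant genes, other than the gene itself, left out of the total. Smgc is among these 10, so it was left out for Lrrk2 and Muc19 but kept for its own share. The smaller denominator raised the mean share of Lrrk2 from 0.00108% to 0.00218%. That of Muc19 rose from 1.56% to 3.18% and that of Smgc from 9.86% to 15.9%. The cause of the changes in calls was not tested. Lowering the minimum level kept 0, 0 and 1 of the 5 genes most like Lrrk2, Smgc and Muc19. No paired analysis was possible because the ages share no replicate numbers. Lrrk2 rests on 56 to 237 counts a library and on 2 libraries an age, and how much each limits its precision was not tested.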
